A study of Mus musculus with 3 samples.

Results

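The 36 genes described here encode enzymes and membrane proteins of the lysosome, together with transcription factors that control such genes. They were chosen by name, and all 36 were found among the 54532 mouse genes in the tables. They comprised 8 cysteine cathepsins, 5 other peptidases, 4 lipid hydrolases and saposin precursors, 9 glycosidases and sulfatases, 6 membrane and cholesterol proteins, and a group of 4 genes with the factors Tfeb, Tfe3 and Mitf and the lysosomal protein progranulin (Grn). Every one of them had at least 1 count in each library, and 36 in the MICF library, 36 in GMTMS-iCMs and 35 in the GMTMM-labelled library had over 10 counts.

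MICFs are cardiac fibroblasts taken from the hearts of adult mice with a myocardial infarction. All 3 libraries came from Myh6-mCherry mice, whose mCherry reporter is driven by the cardiomyocyte promoter of Myh6. The mice were 8 weeks old when their coronary artery was tied, and cells were isolated 5 days later. Cells of the GMTMS group received lentiviruses for Gata4, Mef2c, Tbx5, Myocd and Sall4, and cells of the GMTMM group received Gata4, Mef2c, Tbx5, Myocd and Mesp1. Expression was induced with 1 µg/ml doxycycline, and after 4 weeks the induced cardiomyocytes (iCMs) were sorted for mCherry. For each cocktail 5 sorted samples were mixed into 1 library. MICFs without virus were kept in culture for the same time, and whether they passed through the sorter is not stated in the sources used here. Each condition has 1 library, so the differences given here have no replicate check and no test between conditions was possible.

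Several measurements of the libraries bear on these genes. The total count was 11861773 in the MICF library, 10624118 in GMTMS-iCMs and 11904484 in the GMTMM-labelled library. Sall4 had 0, 1190 and 1060 counts and Mesp1 had 0 counts in each library, so the GMTMM library went against its label and is called the GMTMM-labelled library throughout. Counts of 4 Y-linked genes summed to 0, 1630 and 1926 and Xist had 11855, 5279 and 1618 counts. The sex of the source mice thus differed between MICFs and the iCM libraries. Both iCM libraries held Y-linked and Xist counts. Xist was higher in GMTMS-iCMs than in the GMTMM-labelled library, so the mix of sexes may also differ between these libraries. Tfe3 and Lamp2 lie on the X chromosome, and the part of the sex difference in their values was not tested. All 15 macrophage markers were counted in every library, and their summed FPKM (fragments per kilobase of gene, scaled to library size) was 10771.5 in the MICF library, 20937.9 in GMTMS-iCMs and 9904.68 in the GMTMM-labelled library. The 10 fibroblast markers summed to 1506.67, 228.238 and 2862.04 FPKM in the same order, and none of them was at 0. The markers of cardiomyocytes, 10 genes in all, summed to 2.68, 1425 and 527 FPKM, with 4 of them at 0 in MICFs.

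Lysosomes are acidic compartments in which proteins, lipids, glycans and nucleic acids are broken down. Their enzymes are made in the endoplasmic reticulum and carried to the lysosome by mannose 6-phosphate and other receptors, and the released products leave through transporters in the lysosomal membrane. Many of the genes share a short promoter element, called CLEAR, that is bound by the related factors Tfeb, Tfe3 and Mitf. The core of this element is the E-box CACGTG. Lysosomes are abundant in phagocytes such as macrophages, and many lysosomal enzymes are used by nearly all cells, fibroblasts and cardiomyocytes included.

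The promoters of the genes were searched for this core because the 3 factors that read it are themselves among the 36 genes. The windows ran from 250 bases before to 50 bases after the RefSeq start (GRCm38.p6), and 31 of the 36 genes had an entry. No entry was found for Ctsb, Ctsh, Ctse, Asah1 and Npc1. CACGTG, which reads the same on both strands, was present in 10 of the 31 genes (32.3%) and in 8.09% of the 27025 genes of the promoter table. TCACGTGA, a longer form that contains the core, was present in 3 of 31 (9.68%) and in 1.12% of all genes. The full palindrome of the CLEAR element, which contains both, was present in 0 of 31 and in 0.37% of all genes. Of the 15 macrophage markers, 10 had an entry, and 0 of these 10 held CACGTG. This is too few genes to tell 0 from the 8.09% of all genes. Related lists described below were searched too. Among genes with an entry, CACGTG was in 58.3% of sorting, 33.3% of mTORC1 and TFEB and 26.7% of V-ATPase genes. It was in 26.3% of membrane proteins and transporters, 21.4% of other hydrolases, 17.6% of autophagy genes and 0% of cathepsin inhibitors. TCACGTGA was in 33.3%, 0%, 20%, 21.1%, 7.14%, 5.88% and 0% in the same order.

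The stretches below are those of the 3 genes with TCACGTGA, of the gene with the most cores (Lamp1) and of the genes with a core whose level differed most from MICFs upward (Glb1, in GMTMS-iCMs) and downward (Sgsh, in the GMTMM-labelled library). They are printed 5′ to 3′ on the strand of the gene, and capitals mark CACGTG.
Ctsa, chr2:164833744-164833800, plus strand: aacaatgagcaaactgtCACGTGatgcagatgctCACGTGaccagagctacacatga
Ctsd, chr7:142387903-142387942, minus strand: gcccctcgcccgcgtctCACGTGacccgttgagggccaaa
Ctsd, chr7:142388050-142388077, minus strand: tccccCACGTGacctgtatccagtcatt
Mcoln1, chr8:3500431-3500496, plus strand: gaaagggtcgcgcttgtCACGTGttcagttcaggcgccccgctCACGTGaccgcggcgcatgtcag
Lamp1, chr8:13159083-13159168, plus strand: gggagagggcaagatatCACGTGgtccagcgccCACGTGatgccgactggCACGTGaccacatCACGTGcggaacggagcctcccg
Glb1, chr9:114401013-114401052, plus strand: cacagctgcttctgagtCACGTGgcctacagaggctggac
Sgsh, chr11:119355517-119355556, minus strand: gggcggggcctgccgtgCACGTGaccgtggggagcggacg
Lamp1, which encodes the main glycoprotein of the lysosomal membrane, carried 4 cores, the first of them 61 bases before the start. In Ctsa, which encodes a serine carboxypeptidase that also protects other lysosomal enzymes, the first of 2 cores lay 12 bases before the start. Mcoln1, which encodes a cation channel of the lysosomal membrane, carried 2 cores. In all, 16 cores were found, and the other genes with a core were Ctsf, Ctsl, Lgmn and Gaa.

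The 36 genes took 3.84% of all counts in the MICF library, 5.54% in GMTMS-iCMs and 3.30% in the GMTMM-labelled library. Their median level was 67.0, 103 and 70.9 FPKM in the same order. The cysteine protease gene Ctsb and the saposin precursor gene Psap alone took 1.87%, 3.06% and 1.62% of all counts. On the FPKM scale 29 of the 36 genes were highest in GMTMS-iCMs, 5 in the GMTMM-labelled library and 2 in MICFs. After the quantile normalization described below, these counts were 23, 3 and 10. The same counts over all genes were not made. RNA was taken from bulk cells, so fewer cells of a type and less RNA per cell cannot be told apart in these levels.

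**Figure D1:**
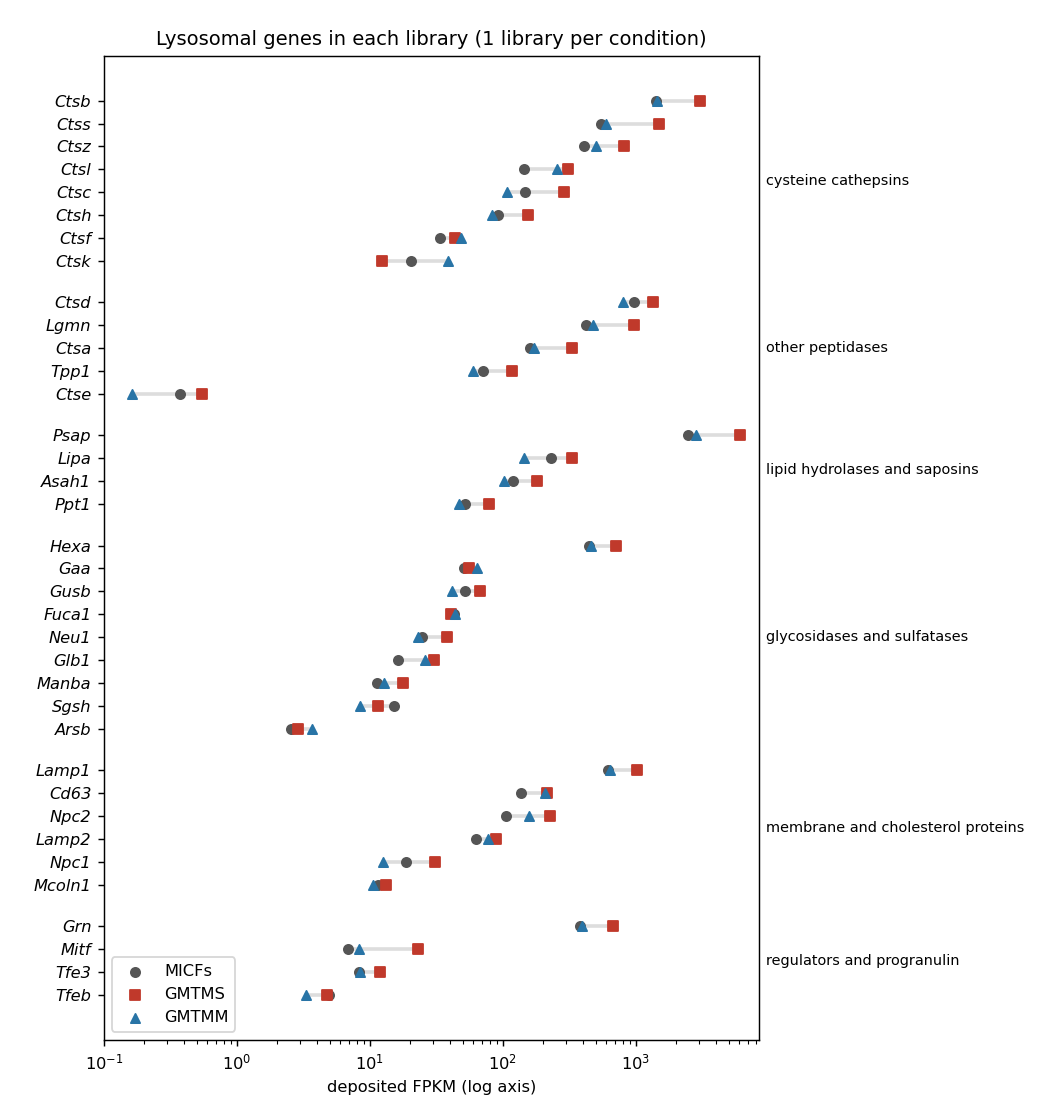
Deposited FPKM (log axis) of the 36 lysosomal genes, grouped by role, in MICFs (grey circles), GMTMS-iCMs (red squares) and the GMTMM-labelled library (blue triangles). Each point is 1 library, so there are no error bars. In 29 genes the red square lies furthest to the right, and Ctsk is the gene of the first group in which it lies furthest to the left. After quantile normalization, not drawn here, GMTMS-iCMs were highest in 23 genes.

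How large these differences were depended on how the libraries were scaled. The deposited FPKM had been scaled by size factors, and on that scale the 1000 most expressed genes had a median log2 difference of 0.50 between GMTMS-iCMs and MICFs and of 0.49 between the GMTMM-labelled library and MICFs. The main scale follows the study's methods, in which FPKM are quantile-normalized over the 3 libraries and taken as log2 (value + 1), and there these medians were -0.12 and -0.07. A difference over 1 on the main scale is called higher or lower here. For a gene well above 1 FPKM it is a 2-fold change of the quantile-normalized value, not of the deposited FPKM. For example, Ctsc had -1.08 in the GMTMM-labelled library against MICFs at an FPKM ratio of 0.729. Psap had 0.17 in GMTMS-iCMs against MICFs at a ratio of 2.44. Between GMTMS-iCMs and the GMTMM-labelled library the 1000 most expressed genes differed by a median of 0.04 on the main scale and 0.12 on the FPKM scale.

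On the main scale the 36 genes as a group lay close to MICFs in GMTMS-iCMs and below MICFs in the GMTMM-labelled library. Their median difference was 0.07 between GMTMS-iCMs and MICFs, beside -0.02 over the 23429 genes tested. In the GMTMM-labelled library against MICFs it was -0.43, beside -0.03 over 23623 genes. Between GMTMS-iCMs and the GMTMM-labelled library it was 0.47, beside 0.04 over 23113 genes. On the FPKM scale without quantile normalization the same medians were 0.63, 0.057 and 0.69. The position against MICFs therefore moved with the scale in both iCM libraries, while the excess of GMTMS-iCMs over the GMTMM-labelled library was between 0.47 and 0.71 on each of the 5 scales used.

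**Figure D2:**
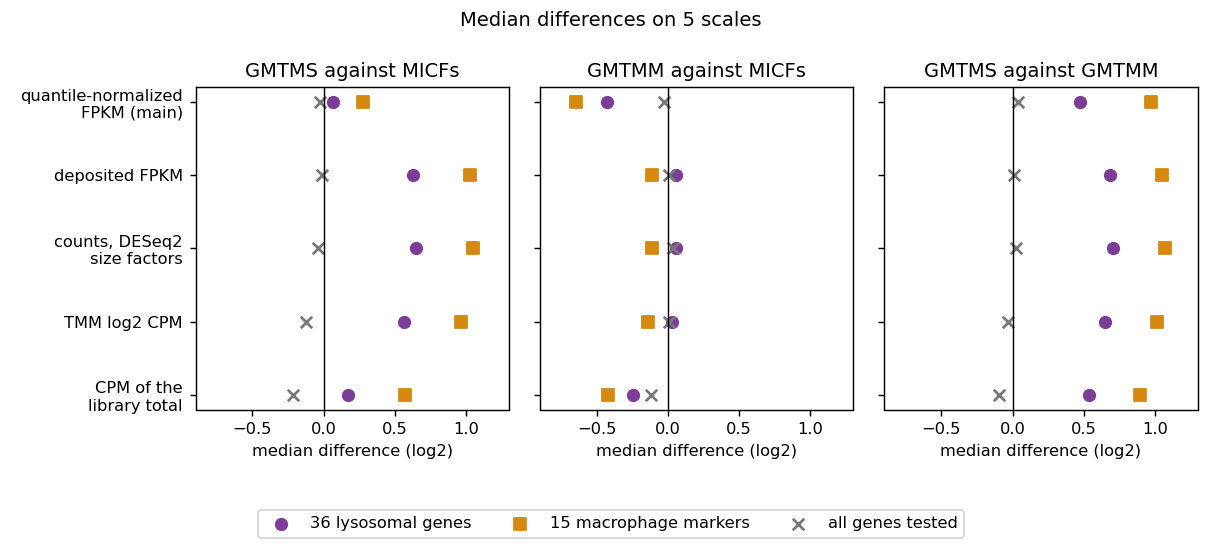
Median log2 difference (horizontal axis) of the 36 lysosomal genes (purple circles), the 15 macrophage markers (orange squares) and all genes tested (grey crosses) on 5 scales (rows), with 1 panel per comparison of 2 libraries. In GMTMS against GMTMM the purple circles lie between 0.47 and 0.71, and against MICFs they shift with the scale. Both comparisons with MICFs share that library, and each comparison has 1 library on each side.

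In direction, 24 of the 36 genes were above 0 in GMTMS-iCMs against MICFs on the main scale, beside 46.8% of all genes tested. In the GMTMM-labelled library 7 of 36 were above 0, beside 46.1%. Between GMTMS-iCMs and the GMTMM-labelled library 31 of 36 were above 0, beside 54.1%. Without quantile normalization the counts were 32 of 36, beside 48.8%, 22 of 36, beside 51.1%, and 31 of 36, beside 50.9%. Of the 1000 most expressed genes, 792, 803 and 551 were above 0 on that scale in the same order. Beside these abundant genes, 22 of 36 in the GMTMM-labelled library against MICFs was a low share. The count of 31 was the same on both scales, and the counts against MICFs were not.

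Few of the 36 genes differed by over 1 on the main scale. In GMTMS-iCMs against MICFs 1 was higher (Mitf), beside 7.29% of all genes tested, and 0 were lower, beside 6.34%. In the GMTMM-labelled library 0 were higher than in MICFs, beside 4.89%, and 2 were lower (Lipa and Ctsc), beside 3%. In GMTMS-iCMs against the GMTMM-labelled library 5 were higher (Mitf, Ctsc, Npc1, Lipa and Ctss), beside 5.5%, and 1 was lower (Ctsk), beside 6.71%. The count of 5 of 36 lay above the share over all genes, the count of 2 of 36 lay near it, and the others lay below it. Of the 1000 most expressed genes, however, 137 were higher and 130 lower in GMTMS-iCMs against the GMTMM-labelled library. The count of 5 of 36 was thus near the share among abundant genes. Without quantile normalization 8 genes were higher in GMTMS-iCMs than in MICFs (Ctsb, Ctsl, Ctss, Ctsa, Lgmn, Psap, Npc2 and Mitf), beside 7.95%, and 0 were lower, beside 6.35%. In the GMTMM-labelled library 0 were higher than in MICFs on that scale, beside 5.56%, and 0 were lower, beside 2.38%. Between the iCM libraries 8 were higher in GMTMS-iCMs (Ctsb, Ctsc, Ctss, Lgmn, Lipa, Psap, Npc1 and Mitf), beside 5.28%, and 1 was lower (Ctsk), beside 7.22%. On that scale the 1000 most expressed genes held 324 past 1 upward and 93 downward for GMTMS-iCMs against MICFs. For the GMTMM-labelled library against MICFs these numbers were 234 and 9, and between the iCM libraries 174 and 129. Beside these abundant genes, 8 of 36 was a low share against MICFs and near theirs between the iCM libraries.

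**Figure D3:**
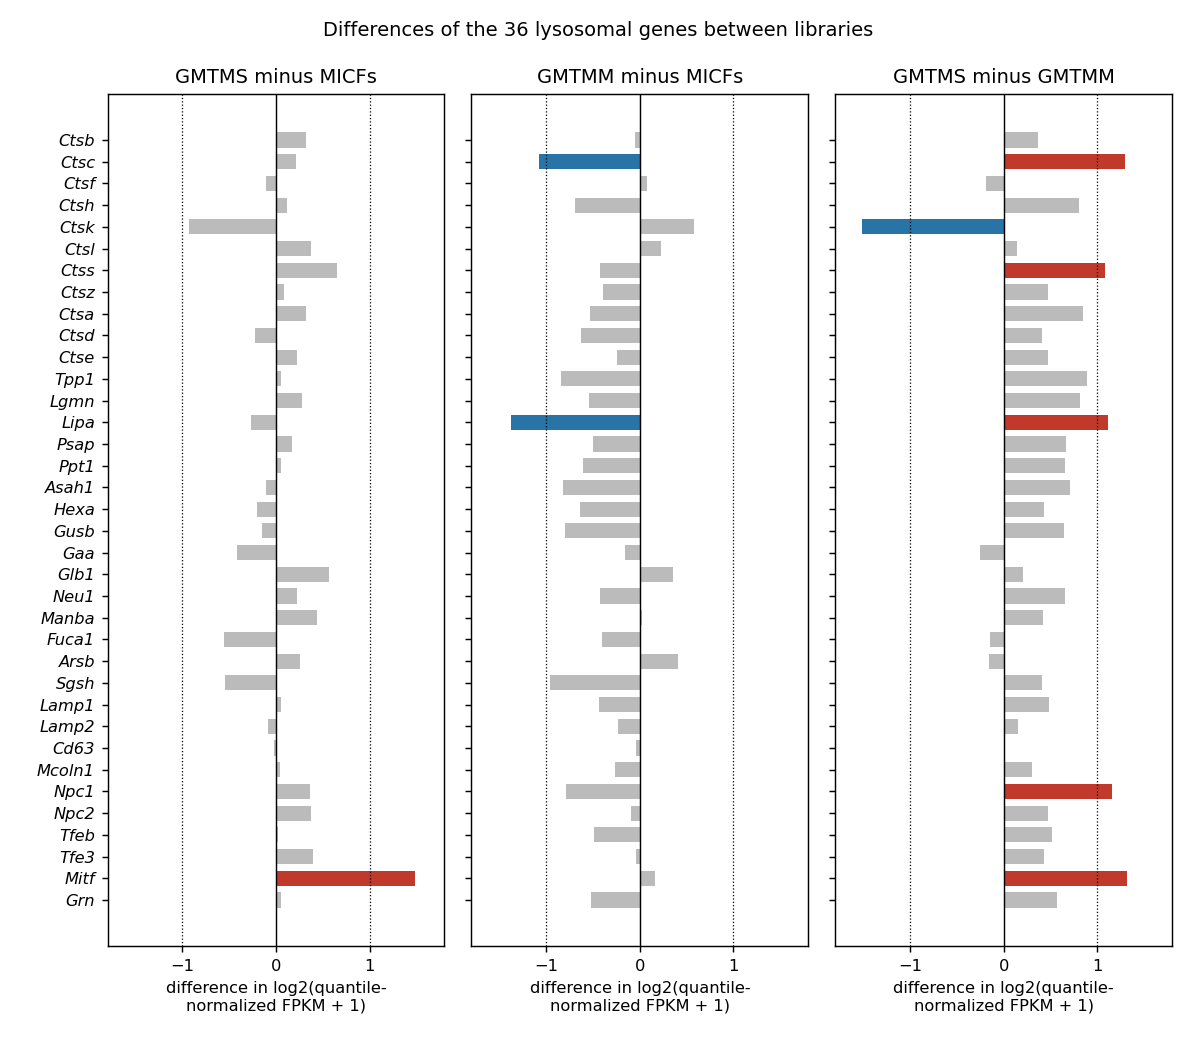
Differences of the 36 lysosomal genes in log2 (quantile-normalized FPKM + 1) between GMTMS-iCMs and MICFs, the GMTMM-labelled library and MICFs, and GMTMS-iCMs and the GMTMM-labelled library. Bars past the dotted lines at 1 and -1 are red where higher and blue where lower, and there are 1 red bar, 2 blue bars, and 5 red bars with 1 blue bar in the 3 panels. No bar has an error, since each condition has 1 library.

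The factors that bind the CLEAR element differed in how their levels lay across the libraries. Mitf (ENSMUSG00000035158, chromosome 6 from 97807052 to 98021349), known for its part in pigment cells and osteoclasts, had 616 counts in the MICF library, 1326 in GMTMS-iCMs and 595 in the GMTMM-labelled library. Its level was 6.91, 23.0 and 8.22 FPKM. GMTMS-iCMs stood apart from the other libraries, at 3.33-fold the FPKM of MICFs (95% interval 3.03 to 3.68) and 2.80-fold that of the GMTMM-labelled library (2.54 to 3.09). These intervals, here and below, are exact Clopper-Pearson intervals on the counts and cover counting error only. On the main scale the differences were 1.48 and 1.32, and under the 8 alternative scalings and filters the difference from MICFs ran from 1.25 to 1.74. Of the 36 genes, Mitf was the 1 past 1 on the main scale in both comparisons that involve GMTMS-iCMs. Without quantile normalization Ctsb, Ctss, Lgmn and Psap were also past 1 in both.

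Tfeb (ENSMUSG00000023990, chromosome 17 from 47737030 to 47792419), a factor that enters the nucleus when nutrients are short, had 401, 251 and 218 counts and 4.92, 4.77 and 3.29 FPKM in MICFs, GMTMS-iCMs and the GMTMM-labelled library. Its main-scale differences were 0.02 between GMTMS-iCMs and MICFs and -0.49 between the GMTMM-labelled library and MICFs. Tfe3 (ENSMUSG00000000134, X chromosome from 7762560 to 7775202), its close relative, had 1103, 1018 and 920 counts and 8.28, 11.8 and 8.50 FPKM. Its main-scale differences from MICFs were 0.39 and -0.04. Neither factor reached 1 in any comparison. In each iCM library Tfeb and Tfe3 stayed within 1.5-fold of their own FPKM in MICFs, and Mitf did so in the GMTMM-labelled library but not in GMTMS-iCMs. Tfeb lay at the edge of this limit in the GMTMM-labelled library, at 1.49-fold below MICFs (1.26 to 1.77). As CPM of the library total it was 1.85-fold below. Its difference between GMTMS-iCMs and MICFs kept its sign in 4 of 8 alternatives.

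Progranulin (Grn, ENSMUSG00000034708, chromosome 11 from 102430315 to 102437048), a secreted and lysosomal protein needed for lysosomal function, was the most abundant gene of this group. It had 19042 counts in the MICF library, 21677 in GMTMS-iCMs and 16137 in the GMTMM-labelled library, at 381, 672 and 398 FPKM. GMTMS-iCMs were highest, at 1.76-fold MICFs (1.73 to 1.8), and the main-scale difference from MICFs was 0.05.

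Among the cysteine cathepsins, 3 genes passed 1 in at least 1 comparison. Ctss (ENSMUSG00000038642, chromosome 3 from 95526786 to 95556403) encodes a protease that cuts the invariant chain of MHC class II in antigen-presenting cells. It had 10719 counts in the MICF library, 18844 in GMTMS-iCMs and 9562 in the GMTMM-labelled library, at 549, 1494 and 603 FPKM. GMTMS-iCMs were highest by 2.72-fold over MICFs (2.66 to 2.79) and 2.48-fold over the GMTMM-labelled library (2.42 to 2.54). The main-scale difference was 0.65 from MICFs and 1.08 from the GMTMM-labelled library.

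Ctsc (ENSMUSG00000030560, chromosome 7 from 88278085 to 88310888) encodes the dipeptidyl peptidase that activates serine proteases of immune granules. Its counts were 12257 in the MICF library, 15495 in GMTMS-iCMs and 7249 in the GMTMM-labelled library, at 147, 287 and 107 FPKM. GMTMS-iCMs were highest and the GMTMM-labelled library lowest, with a main-scale difference of 1.29 between them, a 2.69-fold ratio of FPKM (2.61 to 2.76). Against MICFs the GMTMM-labelled library differed by -1.08 on the main scale, and under the 8 alternatives this difference ran from -1.09 to -0.45 and passed 1 in 4.

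Ctsk (ENSMUSG00000028111, chromosome 3 from 95499256 to 95509362) encodes the collagen-degrading protease of osteoclasts, which is also made by fibroblasts. It had 445 counts in the MICF library, 174 in GMTMS-iCMs and 686 in the GMTMM-labelled library, at 20.5, 12.4 and 38.8 FPKM. The order was the reverse of that of Ctsc, with GMTMS-iCMs lowest and the GMTMM-labelled library highest. The GMTMM-labelled library exceeded GMTMS-iCMs 3.13-fold in FPKM (2.65 to 3.72), a main-scale difference of -1.51 for GMTMS-iCMs. Against MICFs the differences were -0.93 in GMTMS-iCMs and 0.58 in the GMTMM-labelled library. The fibroblast markers lay in the same order, with median main-scale differences from MICFs of -3.00 in GMTMS-iCMs and 0.28 in the GMTMM-labelled library, and their part in the Ctsk result was not tested.

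Ctsb (ENSMUSG00000021939, chromosome 14 from 63122462 to 63145923) encodes the most abundant of the cysteine cathepsins here. It had 124158, 170378 and 101550 counts and 1426, 3032 and 1437 FPKM in MICFs, GMTMS-iCMs and the GMTMM-labelled library. In FPKM GMTMS-iCMs were 2.13-fold above MICFs (2.11 to 2.14), and the other libraries were within 1.01-fold of each other. On the main scale the excess of GMTMS-iCMs over MICFs was 0.32, since the gene ranked 11 in MICFs and 9 in GMTMS-iCMs and quantile normalization keeps only the rank. The remaining cysteine cathepsins, Ctsf, Ctsh, Ctsl and Ctsz, had main-scale differences from MICFs between -0.10 and 0.37 in GMTMS-iCMs and between -0.70 and 0.23 in the GMTMM-labelled library. Ctsl, a broad endopeptidase, was the one of these 4 with a ratio over 1.5 in both iCM libraries, at 2.17-fold (2.12 to 2.22) and 1.79-fold (1.75 to 1.83) the FPKM of MICFs. Between the iCM libraries Ctss, Ctsc and Ctsk were the cysteine cathepsins past 1 on the main scale, and Ctsb also passed without quantile normalization, at 1.08.

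The other peptidases kept 1 order, with GMTMS-iCMs above the GMTMM-labelled library in 5 of 5 genes on the main scale. Ctsd (ENSMUSG00000007891, chromosome 7 from 142375911 to 142388038), the main aspartic protease of the lysosome, had 32999, 29306 and 21891 counts and 975, 1342 and 797 FPKM in MICFs, GMTMS-iCMs and the GMTMM-labelled library. It was highest in GMTMS-iCMs in FPKM and in MICFs on the main scale, where the differences from MICFs were -0.22 and -0.63. Of the 50-base words of its longest transcript 36.6% also occurred in another gene, so its counts are uncertain. Tpp1, which removes tripeptides from protein ends, lay next to the threshold in GMTMS-iCMs against the GMTMM-labelled library, with a difference of 0.89. Lgmn, the asparaginyl endopeptidase that processes other cathepsins, had 426, 975 and 477 FPKM, which is 2.29-fold MICFs in GMTMS-iCMs (2.24 to 2.34). Ctsa had 160, 329 and 172 FPKM, with a main-scale difference of 0.85 between the iCM libraries. Ctse, an endosomal aspartic protease, had 17, 16 and 6 counts, which is too few for its ratio between GMTMS-iCMs and MICFs to differ from 1 within counting error (0.689 to 3.07).

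The lipid-degrading group had a median main-scale difference from MICFs of -0.71 in the GMTMM-labelled library, the lowest of the 6 role groups on that scale. The other peptidases were lower in 4 of 8 alternatives, for example at -0.24 against -0.18 without quantile normalization. Lipa (ENSMUSG00000024781, chromosome 19 from 34492318 to 34527474), the acid lipase that frees cholesterol from lipoprotein esters, had 9783 counts in the MICF library, 9145 in GMTMS-iCMs and 5023 in the GMTMM-labelled library. Its level was 229, 332 and 145 FPKM. The GMTMM-labelled library was lowest, at -1.38 on the main scale against MICFs, where MICFs had 1.58-fold more FPKM (1.53 to 1.64). Under the 8 alternatives this difference ran from -1.39 to -0.66 and passed 1 in 4. GMTMS-iCMs exceeded the GMTMM-labelled library by 1.11 on the main scale and 2.29-fold in FPKM (2.21 to 2.37).

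Psap (ENSMUSG00000004207, chromosome 10 from 60277627 to 60302597), the precursor of the saposins that present sphingolipids to their hydrolases, was the most abundant of the 36 genes. It had 98121, 154687 and 91604 counts and 2485, 6070 and 2858 FPKM in MICFs, GMTMS-iCMs and the GMTMM-labelled library. GMTMS-iCMs were highest, at 2.44-fold MICFs (2.42 to 2.46), with a main-scale difference of 0.17. Ppt1, a thioesterase that removes palmitate from proteins, and Asah1, the acid ceramidase, differed from MICFs by -0.61 and -0.82 in the GMTMM-labelled library and by 0.05 and -0.11 in GMTMS-iCMs on the main scale. All 4 genes of the group thus had negative main-scale differences from MICFs in the GMTMM-labelled library, and 1 of them passed 1, whereas 3 of 4 were negative without quantile normalization.

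None of the 9 glycosidases and sulfatases passed 1 in any comparison. Hexa (ENSMUSG00000025232, chromosome 9 from 59539540 to 59565109), a subunit of the beta-hexosaminidase that degrades gangliosides, was the most abundant of them. It had 12738, 13136 and 10824 counts and 444, 709 and 464 FPKM in MICFs, GMTMS-iCMs and the GMTMM-labelled library. GMTMS-iCMs were highest in FPKM, at 1.60-fold MICFs (1.56 to 1.64), while the main-scale difference from MICFs was -0.21. The 9 genes ranged from -0.55 to 0.57 in GMTMS-iCMs and from -0.96 to 0.41 in the GMTMM-labelled library against MICFs.

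Within that group Sgsh, the sulfamidase of heparan sulfate breakdown, was next to the threshold. It had 961, 475 and 438 counts and 15.1, 11.6 and 8.50 FPKM in MICFs, GMTMS-iCMs and the GMTMM-labelled library, with main-scale differences from MICFs of -0.55 and -0.96. Sgsh and Tfeb were the 2 of 36 genes whose FPKM was highest in MICFs. Glb1, the beta-galactosidase used as a senescence stain, was instead lowest in MICFs, with 16.3, 30.6 and 25.8 FPKM and differences of 0.57 and 0.36. Fuca1 and Gaa, which remove fucose and break down glycogen, and Arsb, a sulfatase of dermatan sulfate, were below 0 in GMTMS-iCMs against the GMTMM-labelled library, with differences of -0.14, -0.26 and -0.15. Together with Ctsk and Ctsf they made up the 5 of 36 genes below 0 in that comparison. Exons of another gene overlapped 39.9% of the exon bases of Arsb and 21.6% of those of Sgsh, so these counts are uncertain.

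Among the membrane and cholesterol proteins, Npc1 separated the iCM libraries. Npc1 (ENSMUSG00000024413), the membrane protein that exports cholesterol from the lysosome, had 2891 counts in the MICF library, 3072 in GMTMS-iCMs and 1568 in the GMTMM-labelled library, at 18.7, 30.8 and 12.5 FPKM. GMTMS-iCMs were highest and the GMTMM-labelled library lowest, with a main-scale difference of 1.16 and a 2.46-fold ratio of FPKM (2.32 to 2.62). Its soluble partner Npc2, which hands cholesterol to Npc1, had 106, 226 and 157 FPKM and a difference of 0.47 between the iCM libraries. The ratio of FPKM between the GMTMM-labelled library and MICFs was 0.668 for Npc1 (0.628 to 0.711) and 1.47 for Npc2 (1.43 to 1.52). On the main scale both partners lay below MICFs there, at -0.79 and -0.10, and Npc2 kept that sign in 4 of 8 alternatives.

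Lamp1 (ENSMUSG00000031447, chromosome 8 from 13159161 to 13175338), whose promoter held 4 cores, had 23781, 25556 and 20013 counts and 618, 1029 and 640 FPKM in MICFs, GMTMS-iCMs and the GMTMM-labelled library. Its main-scale differences from MICFs were 0.05 and -0.43. Lamp2, a related membrane protein that also serves chaperone-mediated autophagy, and Cd63, a tetraspanin of late endosomes, differed by 0.15 and 0.02 between the iCM libraries on the main scale. Mcoln1 differed by 0.31. On the main scale GMTMS-iCMs were above the GMTMM-labelled library in 6 of 6 genes of the group, and 1 of them passed 1. Cd63 changed sign with TMM and as CPM of the library total, which left 5 of 6.

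Genes with and without the E-box core were set side by side. The median main-scale difference from MICFs in GMTMS-iCMs was 0.04 over the 10 genes with CACGTG and 0.05 over the 21 without it. In the GMTMM-labelled library it was -0.35 and -0.43. Between GMTMS-iCMs and the GMTMM-labelled library it was 0.36 with the core and 0.51 without it. On this scale none of the 10 genes with the core passed 1 in any comparison. Without quantile normalization 3 of them did (Ctsl, Ctsa and Lgmn, higher in GMTMS-iCMs than in MICFs, with Lgmn also higher than in the GMTMM-labelled library). Of the 6 genes past 1 on the main scale, Npc1 had no promoter entry and the other 5 had no CACGTG in the window searched.

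Like the lysosomal genes, the macrophage markers were highest in sum in GMTMS-iCMs. All 15 markers were counted in every library, with none at 0, and their share of all counts was 2.07% in the MICF library, 3.04% in GMTMS-iCMs and 1.51% in the GMTMM-labelled library. On the FPKM scale the median ratio of the markers was 2.07 between GMTMS-iCMs and MICFs, 0.924 between the GMTMM-labelled library and MICFs and 2.10 between the iCM libraries. The medians of the 36 lysosomal genes were 1.57, 1.04 and 1.63 in the same order, so in the GMTMM-labelled library against MICFs the medians lay on opposite sides of 1. Lyz2, the lysozyme gene of macrophages and neutrophils, was at 6135, 11353 and 5495 FPKM. Of the 36 lysosomal genes, 35 had a ratio within the range of the 15 markers in GMTMS-iCMs against MICFs (0.676 to 3.76) and 35 in the GMTMM-labelled library against MICFs (0.130 to 1.81). Between the iCM libraries 11 lay within that range (1.88 to 5.19) and 25 below it. Between the iCM libraries all genes tested had a median log2 difference of 0.01 on the FPKM scale, a ratio that also lies below that range. The ranges against MICFs are wide. Above the median ratio of the markers lay 7 of the 36 genes in GMTMS-iCMs against MICFs. In the GMTMM-labelled library against MICFs 23 did so, and 8 between the iCM libraries. The shares of all genes within or below these ranges, or above these medians, were not counted in any comparison. The part of macrophage RNA in the lysosomal values was not tested.

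Osteoclast markers were read beside Mitf and Ctsk, since both genes are used in osteoclasts. Of the 7 markers, 3 had at most 10 counts in every library and the other 4 did not share 1 order. Calcr had 0 counts in each library, Dcstamp had 0, 10 and 1, and Oscar had 9, 0 and 2 in MICFs, GMTMS-iCMs and the GMTMM-labelled library. Ocstamp had 5, 120 and 54 counts. Mmp9, a gelatinase also made by macrophages, had 1487, 4601 and 1680 counts, Tnfrsf11a, the receptor of the osteoclast cytokine RANKL, had 540, 1280 and 483, and Itgb3, the integrin beta3 gene, had 914, 66 and 765. The 7 markers summed to 46.7, 168 and 60.0 FPKM, and their part in the Mitf and Ctsk values was not tested.

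Other genes of the lysosomal system were taken from 7 lists, whose counts in GMTMS-iCMs against MICFs stand beside 7.29% of all genes tested for higher and 6.34% for lower ones. Of 21 other lysosomal hydrolases and activators, 2 were higher in GMTMS-iCMs than in MICFs and 0 were lower, and the median was 0.06, so the count was near that background. Acp5, the tartrate-resistant acid phosphatase of osteoclasts and activated macrophages, had 179 counts in the MICF library, 2571 in GMTMS-iCMs and 1347 in the GMTMM-labelled library, at 6.13, 136 and 56.8 FPKM. It was lowest in MICFs. GMTMS-iCMs exceeded MICFs 22.3-fold (19.1 to 26), and the GMTMM-labelled library exceeded MICFs 9.27-fold (7.93 to 10.9). Gla, the alpha-galactosidase lacking in Fabry disease, had 18.4, 79.5 and 43.9 FPKM, a main-scale difference of 1.67 in GMTMS-iCMs.

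Of 22 lysosomal membrane proteins and transporters, 2 were higher and 1 lower in GMTMS-iCMs than in MICFs, also near the background. Without quantile normalization 4 were higher, beside 7.95% of all genes. Mcoln2, a cation channel related to Mcoln1, had 517, 3311 and 1554 counts and 10.9, 108 and 40.5 FPKM in MICFs, GMTMS-iCMs and the GMTMM-labelled library. The difference of 2.89 in GMTMS-iCMs was far from the 0.04 of Mcoln1 itself. Slc36a1, an amino acid transporter of the lysosome, had 1095, 301 and 316 counts and differed from MICFs by -1.21 and -1.50 in the iCM libraries. The pair thus lay on opposite sides of MICFs, and the median of the list was 0.00.

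The proton pump that acidifies the lysosome (V-ATPase) had 20 subunit genes tested, of which 1 was higher and 0 lower in GMTMS-iCMs than in MICFs. This count depended on the scale, at 8 higher without quantile normalization (beside 7.95% of all genes), 8 with TMM, 10 with DESeq2 size factors and 0 as CPM of the library total. Of all 23429 genes, 3586 were higher with TMM, 5138 with DESeq2 size factors and 1315 as CPM. Of the 1000 most expressed genes, 324, 307, 328 and 212 were higher on these scales in the order first given. The main-scale median of 0.34 lay above the 0.07 of the 36 genes. Atp6v1h and Atp6v1c1, subunits of the part that burns ATP, differed by 1.13 and 0.91. Among 16 genes for sorting to the lysosome 0 were higher and 0 lower, and the widest differences were those of Gnptab, which makes the mannose 6-phosphate tag, at 0.73, and of M6pr, a receptor for it, at 0.61.

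Of 19 tested genes that control mTORC1 and TFEB at the lysosome, 2 were higher in GMTMS-iCMs than in MICFs and 0 were lower. Tfec, the remaining member of the Mitf family and a factor of macrophages, had 310 counts in the MICF library, 1013 in GMTMS-iCMs and 557 in the GMTMM-labelled library, at 3.85, 19.5 and 8.52 FPKM. Its differences from MICFs were 2.04 and 0.98. Fnip2, a partner of folliculin, had 2232, 6343 and 2698 counts and a difference of 1.70 in GMTMS-iCMs. Of the 4 factors of this family, Tfec and Mitf were thus past 1 in GMTMS-iCMs against MICFs, and Tfeb and Tfe3 were not.

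Of 23 autophagy genes, 2 were higher in GMTMS-iCMs than in MICFs and 1 was lower, both near the background. Sqstm1, the p62 receptor that carries cargo to autophagosomes, had 6700 counts in the MICF library, 23990 in GMTMS-iCMs and 26130 in the GMTMM-labelled library, at 139, 770 and 667 FPKM. It was 5.55-fold (5.40 to 5.70) and 4.80-fold (4.68 to 4.94) above MICFs, and the iCM libraries differed by -0.10 on the main scale. Optn, another cargo receptor, differed from MICFs by 1.55 and 0.91. Of 5 cathepsin inhibitor genes tested, 2 were higher in GMTMS-iCMs than in MICFs, of which Serpina3g had 265, 771 and 1675 counts and differences of 1.87 and 2.65, and Cst7 had 18, 34 and 35 counts and a difference of 1.18.

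Against MICFs the GMTMM-labelled library had main-scale medians of -0.31 over the other hydrolases, -0.33 over the membrane proteins, -0.29 over the V-ATPase, -0.33 over the sorting genes, -0.17 over the mTORC1 and TFEB genes, -0.03 over the autophagy genes and 0.36 over the cathepsin inhibitors. The medians of the first 4 lists lay near the -0.43 of the 36 genes. Without quantile normalization they were 0.023, -0.15, 0.18 and -0.034, so 2 of the 4 changed sign. On the main scale those lists held 1, 1, 0 and 0 higher genes, beside 4.89% of all genes, and 2, 2, 1 and 1 lower genes, beside 3%. Between GMTMS-iCMs and the GMTMM-labelled library the first 4 medians were 0.54, 0.56, 0.50 and 0.42, beside 0.47 for the 36 genes. The mTORC1 and TFEB list was at 0.20, the autophagy list at 0.14 and the cathepsin inhibitors at -0.37.

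**Figure D4:**
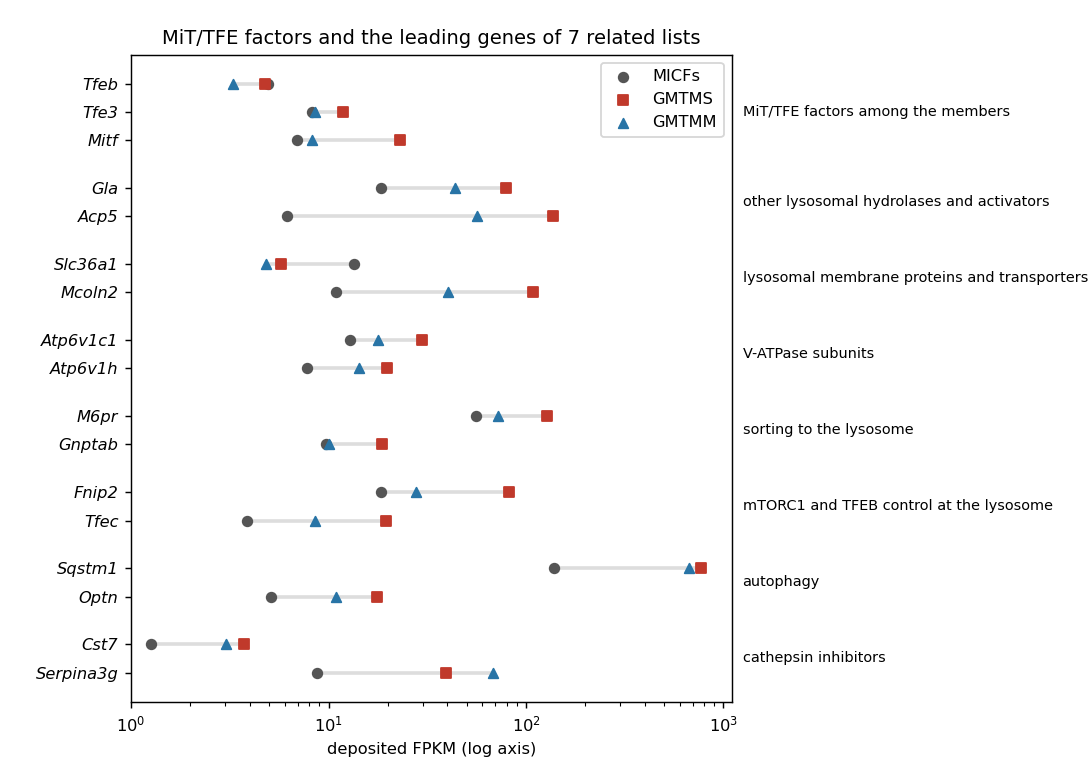
Deposited FPKM (log axis) of Tfeb, Tfe3 and Mitf and of the 2 genes of each of 7 related lists with the widest main-scale difference between GMTMS-iCMs and MICFs, in MICFs (grey circles), GMTMS-iCMs (red squares) and the GMTMM-labelled library (blue triangles). Each point is 1 library. Acp5 runs from 6.13 to 136 FPKM and Sqstm1 is near 139 in MICFs and at 667 and 770 in the iCM libraries, while Slc36a1 is highest in MICFs.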

How the data were processed

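The 3 RNA-seq libraries were read from both ends over 150 nucleotides, and the authors deposited raw counts per gene and FPKM per gene. The submitters' processing notes name HISAT2 2.0.5 and the mm9 build, while gene identifiers and coordinates equalled those of GENCODE M21 (GRCm38) for 34 of the 36 genes, so coordinates are given on GRCm38 as the files have them. The tool used for counting and whether it used strand are not given in the sources used here, so a gene and an overlapping gene cannot be told apart, and 7 of the 36 genes had over 10% of their exon bases in exons of another gene (Arsb, Ctsd, Ctsl, Sgsh, Ctsa, Ctsb and Hexa). The deposited FPKM rest on library sizes that follow DESeq2 size factors (1.26 for MICFs, 0.811 for GMTMS and 1.02 for GMTMM) and not the library totals. The MICF column is headed cMF, which no label spells out, and it was matched to MICFs because the other headings name the cocktails.

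FPKM were quantile-normalized over the 3 libraries with ties averaged, then taken as log2 (value + 1), and a difference over 1 was called. Genes with at least 1 count in either library were tested. FPKM ratios carry exact 95% intervals (Clopper-Pearson) taken from the counts. The floor was 3 counts. With 1 library per condition no p-value was computed. As alternatives, quantile normalization was run after the log2 step or omitted, the pseudocount was set to 0.1, genes were restricted to FPKM of at least 1 or to protein-coding ones, and counts were scaled by TMM in edgeR (log2 CPM, prior count 2), by DESeq2 size factors or to CPM of the library total. The limit of 1 was also replaced by 1.5-fold and by 2. The steps were tested on simulated data in which equally many genes were raised and lowered. A broad shift of abundant genes, as between these libraries, was not simulated, so the test does not bear on the choice of scale.

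The genes and lists were chosen with earlier results of these data known. Counts and levels in every library are given for those of the 36 genes past 1 in any comparison, the most abundant of each role and the 3 factors, with others by range or, for a few, by value. Of each related list the 2 genes with the widest difference between GMTMS and MICFs are named. Lyz2 and the other members with values were picked after their values were seen. Promoter sequences are those of RefSeq. Protein sequences were not analysed here. R 4.3.3 was used with DESeq2 1.42.0 and edgeR 4.0.16, and Python 3.11.15 with SciPy 1.17.1, pandas 2.3.3, matplotlib 3.10.9 and numpy 2.4.6.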

Additional observations from a re-analysis of the deposited data

Results flagged for a closer look

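Ctsk was picked out because its difference from MICFs had opposite signs in the iCM libraries, at -0.93 in GMTMS-iCMs and 0.58 in the GMTMM-labelled library on the main scale. Both values share the 1 MICF library, and the difference between them was not tested, since each condition has 1 library.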

How the results depend on the processing

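The median difference of the 36 genes between GMTMS-iCMs and MICFs was 0.63 without quantile normalization, 0.65 with DESeq2 size factors, 0.56 with TMM and 0.17 as CPM of the library total, in place of 0.07. Between the GMTMM-labelled library and MICFs it was 0.057, 0.057, 0.028 and -0.25 in the same order, in place of -0.43. Between the iCM libraries it was 0.69 without quantile normalization, 0.71 with DESeq2 size factors and 0.65 with TMM, in place of 0.47. The other alternatives moved these medians by at most 0.1. The count of genes higher in GMTMS-iCMs than in MICFs, 1 on the main scale, was 8 without quantile normalization, 9 with DESeq2 size factors, 6 with TMM, 2 at a limit of 1.5-fold and 0 at a limit of 2. Of all 23429 genes tested, 1862 were higher without quantile normalization, 5138 with DESeq2 size factors and 3586 with TMM, so the background moved as well. Among the 1000 most expressed genes the numbers on these 3 scales were 324, 328 and 307. The 0 lower genes became 1 as CPM of the library total (Ctsk), beside 3772 of all 23429 genes, and 1 at 1.5-fold. The count of genes lower in the GMTMM-labelled library than in MICFs, 2 on the main scale (Lipa and Ctsc), was 1 with CPM (Sgsh), 1 with DESeq2 size factors and 1 with TMM (both Ctse), 0 without quantile normalization, 3 with a pseudocount of 0.1 (Sgsh added), 11 at 1.5-fold and 0 at 2. Of all 23623 genes tested, 1865 were lower with CPM, 3324 with DESeq2 size factors and 2652 with TMM. Without quantile normalization 563 were lower, and 3194 with a pseudocount of 0.1. The 5 genes higher in GMTMS-iCMs than in the GMTMM-labelled library became 8 without quantile normalization, 9 with DESeq2 size factors, 8 with TMM, 14 at 1.5-fold and 0 at 2, and the 1 lower gene became 0 at 2. Of all 23113 genes tested, 1221 were higher without quantile normalization, 4515 with DESeq2 size factors and 2943 with TMM. The 1000 most expressed genes gave 174, 174 and 157 in the same order. Shares over all genes at the limits of 1.5-fold and 2 were not computed. Of the 9 differences past 1, all kept their sign in 72 of 72 values under the 8 scalings and filters, and 64 of the 72 passed 1. The 6 of them between the iCM libraries passed 1 in every one of these. The 8 values that did not pass were those of Ctsc and Lipa in the GMTMM-labelled library against MICFs. Quantile normalization without the GMTMM-labelled library, chosen after the data were seen, gave 1 higher gene, 0 lower genes and a median of 0.060 in GMTMS-iCMs against MICFs. No paired analysis was possible because all conditions hold a single library, and for the same reason no library could be left out of a group. The counting intervals were widest for Ctse, and the spread between cultures is unknown.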
